A study of Homo sapiens with 12 samples.

Results

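The integrin subunits described here are 10 genes, ITGA2, ITGA3, ITGA5, ITGA6, ITGAV, ITGB1, ITGB3, ITGB4, ITGB5 and ITGB8, taken from a list of names and matched by symbol to the 62703 Ensembl identifiers of the deposited expression files. All 10 were found, and together they hold 5 alpha and 5 beta chains. RNA of HK2 cells, an immortalised line of human proximal tubule epithelium, was sequenced as 12 libraries, which form 4 groups of 3. NG cells were transfected with a control vector in 5.5 mM glucose, and si-FGF9 cells received an siRNA against FGF9 in the same glucose. The sources describe a lipofectamine reagent for the transfections and name no vector for HG. HG cells were kept in 50 mM glucose, and HG + OE-FGF9 cells had 50 mM glucose together with a vector that overexpresses FGF9, a lentivirus in the labels and methods and an adenovirus elsewhere in the study's text. The study asked how high glucose and the level of FGF9, a secreted fibroblast growth factor, act on tubular cells. Medium for all groups was DMEM/F-12 with serum. The sources used here describe no osmotic control in the labels, although the study's results mention mannitol for NG, and no non-targeting siRNA. Glucose cannot be told apart from osmolarity or from the control vector of NG, nor an effect on FGF9 from that of any siRNA. As no vector is named for HG, added FGF9 cannot be told apart from its vector or the delivery of it. Nothing says that the 3 libraries of a group came from separate cultures, so the tests measure only the spread between libraries, which may be technical.

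Integrins are cell surface receptors in which an alpha chain is paired with a beta chain, and the pair decides which matrix protein is bound. ITGB1 is the shared partner of ITGA2, a collagen receptor, of ITGA3 and ITGA6, which bind laminin, and of ITGA5, which binds fibronectin. ITGAV pairs with ITGB1, ITGB3, ITGB5, ITGB6 and ITGB8 and recognises vitronectin, fibronectin and latent TGF-beta, whereas ITGB4 pairs only with ITGA6, in hemidesmosomes. In the kidney tubule these receptors hold the epithelium to its basement membrane.

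Values are TPM, an estimate of transcript number scaled for gene length and for the library's total, so that levels of different genes can be set side by side. The depth of the libraries is unknown because TPM keep no record of it. The number of genes that reached 1 TPM ran from 11549 to 13949 over the libraries. FGF9 was listed at 0 in all 9 libraries of NG, HG and si-FGF9 and at 3.34, 4.03 and 3.82 TPM in HG + OE-FGF9, so the overexpression can be seen and the knockdown cannot be checked. The keratins KRT8, KRT18 and KRT19 lay between 210.71 and 677.75 TPM, but 5 of the 8 proximal tubule markers looked for, among them the endocytic receptors LRP2 and CUBN, stayed below 1 TPM in every library, and the epithelial cadherin CDH1 reached only 0.28. Other markers moved with the groups. GGT1, a brush border enzyme, was at 71.65 to 83.76 TPM in NG, 97.20 to 138.64 in HG, 174.91 to 195.31 in si-FGF9 cells and 81.65 to 86.32 with added FGF9. EPCAM was at 19.86 to 31.32 TPM in NG and at 3.95 to 16.09 elsewhere, and the cadherin CDH2 was at 87.17 to 91.63 TPM in NG and at 15.10 to 35.42 elsewhere, so that both were highest in NG as ITGB1 was. Of 6 fibroblast markers, 4 stayed below 1 TPM, and COL1A1 was at 4.35 to 7.81 TPM in NG and at 1.54 to 2.79 elsewhere. DCN reached 3.91 TPM in 1 NG library and at most 0.85 outside NG. The part of these markers in the results was not tested. All 4 endothelial markers and the leukocyte genes PTPRC and CD3E did not exceed 0.10 TPM, whereas CD68, a lysosomal gene used as a macrophage marker, was at 107.98 to 158.66 TPM in every group. HG + OE-FGF9 libraries 1 and 2 were the most alike of any pair of one group, with a median difference of 0.085 on the log2 scale, against 0.38 and 0.39 to library 3. HG libraries 2 and 3 were the least alike, at 0.55.

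In NG cells the beta chain ITGB1 was the most abundant member, and it was the member with the largest fall in both HG and si-FGF9 cells, together with the alpha chain ITGAV. Base composition moved with the results below, and these sequences show it for a few members. They are the last 90 coding bases, ending before the stop codon, of the principal transcript (APPRIS, the longest where several are tagged) of ITGB1 and ITGAV and of the fellow alpha chains ITGA5 and ITGA3, from GENCODE 29 on GRCh38, with G and C in capitals. This stretch encodes the C-terminal end of each chain. G and C make up 41.1% of these bases in ITGB1, 45.6% in ITGAV, 54.4% in ITGA5 and 61.1% in ITGA3. Over so short a stretch the members that fell and the others are not apart, as ITGB3 has 53.3% and ITGB5 has 43.3%.
ITGB1: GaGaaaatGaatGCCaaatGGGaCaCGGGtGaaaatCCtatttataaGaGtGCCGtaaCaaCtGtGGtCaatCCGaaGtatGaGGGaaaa
ITGAV: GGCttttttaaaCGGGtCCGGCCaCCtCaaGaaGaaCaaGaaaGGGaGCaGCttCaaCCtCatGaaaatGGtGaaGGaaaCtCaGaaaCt
ITGA5: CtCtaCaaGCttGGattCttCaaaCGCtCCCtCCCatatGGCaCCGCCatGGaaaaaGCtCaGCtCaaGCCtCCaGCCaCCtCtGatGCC
ITGA3: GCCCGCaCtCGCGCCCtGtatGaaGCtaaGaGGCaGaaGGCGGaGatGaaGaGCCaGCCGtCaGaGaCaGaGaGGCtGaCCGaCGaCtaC

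Across the longest whole transcript, the GC content was 37.8% for ITGB8, 38.3% for ITGAV, 39.98% for ITGB1, 40.2% for ITGA2 and 42.9% for ITGA6. It was 52.3% for ITGB3, 54.3% for ITGB5, 54.5% for ITGA5, 61.3% for ITGA3 and 63.7% for ITGB4. ITGB1 lies on the minus strand of chromosome 10, from 32900319 to 33005792, and ITGAV on the plus strand of chromosome 2, from 186590065 to 186680901. ITGA3 occupies 50055968 to 50090481 of chromosome 17, plus strand, and ITGA5 occupies 54395261 to 54419460 of chromosome 12, minus strand, all in GRCh38 as given by GENCODE 29.

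RefSeq promoter windows, 250 bases before to 50 after the start that RefSeq gives, were found for 7 members and not for ITGA3, ITGB3 and ITGB4. For ITGB1 that start lies inside the longer gene model of GENCODE 29 given above. Those of ITGB1 and ITGAV are printed because these genes moved together. Capitals mark GC boxes, the letters GGGCGG on either strand, which bind SP family factors. The ITGB1 window is chr10:32958181-32958480 on the minus strand and the ITGAV window is chr2:186589806-186590105 on the plus strand, both in GRCh38.p14.
ITGB1: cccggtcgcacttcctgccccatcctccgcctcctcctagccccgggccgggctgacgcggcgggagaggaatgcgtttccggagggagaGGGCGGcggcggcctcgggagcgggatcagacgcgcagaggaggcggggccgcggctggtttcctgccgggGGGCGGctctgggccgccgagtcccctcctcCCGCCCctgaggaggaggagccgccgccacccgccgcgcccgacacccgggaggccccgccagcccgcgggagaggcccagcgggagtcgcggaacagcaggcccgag
ITGAV: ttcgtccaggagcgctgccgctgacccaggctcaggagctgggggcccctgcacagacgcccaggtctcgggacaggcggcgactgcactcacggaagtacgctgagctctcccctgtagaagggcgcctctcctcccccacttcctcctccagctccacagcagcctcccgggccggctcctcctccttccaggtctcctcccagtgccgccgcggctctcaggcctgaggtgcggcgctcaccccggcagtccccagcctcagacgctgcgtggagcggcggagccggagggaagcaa

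GC boxes were found 3 times in the ITGB1 window and not in that of ITGAV, and 45.0% of 35116 promoter windows hold at least 1. ITGA2 had 4, ITGB5 and ITGB8 had 2 each, and ITGA5 and ITGA6 had 1 each. The AP-1 motif TGANTCA, present in 7.71% of all windows, occurred only in ITGA5, once, and the EGR motif GCGNGGGCG, present in 9.43%, only in ITGB8, also once, where it overlaps 1 of the GC boxes. Both windows are GC-rich, at 78.3% for ITGB1 and 70.7% for ITGAV, in contrast to their transcripts.

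The comparison of HG with NG asks which integrin chains differ between the glucose conditions. ITGB1 and ITGAV were each more than 4-fold lower in mean TPM in HG cells, and ITGB3, ITGA2, ITGA6 and ITGB8 were lower by 2.06- to 3.66-fold. ITGA3, ITGA5, ITGB4 and ITGB5 were not called. A gene was called when its log2 fold change of TPM + 1 reached 1 in either direction with an unadjusted limma p under 0.01, the criteria of the study. By these, 6 of 10 members were lower and 0 higher, where 24.4% of the 14639 genes tested were called, 22.7% lower and 1.65% higher. The median log2 fold change was -1.09 over the members and -0.39 over all genes. All 6 calls also had an adjusted p under 0.05. ITGA2 entered the test only through NG, the group where it was high, and so had to differ. Among the 9 members that pass the filter outside NG, 5 were lower.

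**Figure D1:**
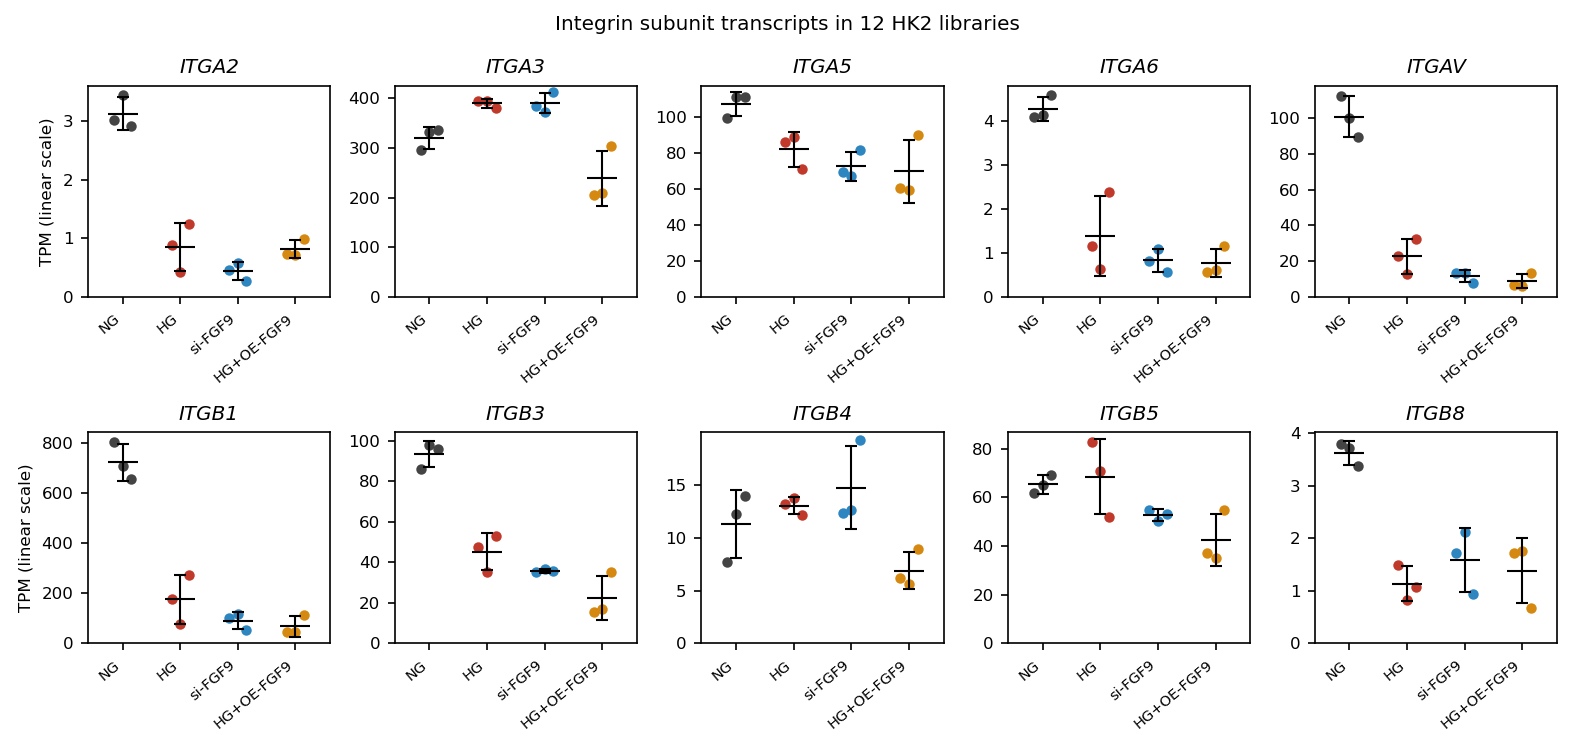
TPM of the 10 integrin subunits in each library (points, linear axis from 0), with the mean and SD of 3 libraries (black), by group. ITGB1 and ITGAV in NG lie far above the other groups, whereas ITGA3, ITGB4 and ITGB5 of HG cells are not below all NG libraries.

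ITGB1 measured 801.19, 706.80 and 655.73 TPM in NG and 177.15, 78.45 and 272.13 in HG. The groups were far apart, although HG libraries 2 and 3 differed from each other more than 3-fold. The mean was 721.24 ± 73.8 (SD, n = 3) in NG and 175.91 ± 96.8 in HG, 4.10-fold lower. The log2 fold change was -2.20 ± 0.46 (SE, limma adjusted p = 0.00281). By RT-qPCR the study measured more ITGB1 mRNA under high glucose and after the siRNA than in NG, opposite to the TPM. Once FGF9 was added to high glucose it measured less, the direction that the mean TPM also took. In kidney of diabetic mice the study's RT-qPCR values for ITGB1 were below those of controls. From the sequencing, the study counted ITGB1 among the genes that differed in each of its comparisons. In the fit used here ITGB1 was not called in HG + OE-FGF9 versus HG. Why RT-qPCR and TPM differ was not tested.

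ITGAV, the common alpha chain of the vitronectin receptors, was at 112.71, 100.19 and 89.81 TPM in NG and 22.88, 12.78 and 32.45 in HG. The same HG library was lowest and the same highest as for ITGB1. The log2 fold change was -2.19 ± 0.34 (limma adjusted p = 0.00099), a 4.44-fold lower mean.

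ITGB3, a partner of ITGAV, was at 86.25, 98.06 and 95.91 TPM in NG and 47.82, 35.26 and 52.89 in HG. Every HG library was below every NG library. With a log2 fold change of -1.04 ± 0.26 it just passed the fold criterion (limma adjusted p = 0.00594), and without HG library 2 it was -0.88 and no longer called.

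ITGA2, ITGA6 and ITGB8 were scarce even in NG, at a mean of 3.13, 4.28 and 3.63 TPM. In HG they were at 0.85, 1.39 and 1.14 TPM, and again no HG library reached an NG library. Their log2 fold changes of -1.18, -1.21 and -1.13 understate the change, since 1 was added to each TPM, and the ratios of mean TPM were 3.66-, 3.07- and 3.19-fold. The filter on low values asked for 1 TPM in 3 libraries. ITGA2 reached it in only 1 library outside NG and passed through NG alone, while ITGA6 reached it in 4 and ITGB8 in 6 and both pass without NG. Without HG library 2 the log2 fold change of ITGA6 was -0.97 and it lost its call. The other 7 members passed 1 TPM in all 12 libraries.

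Among the members not called, ITGA3 was at 294.82, 331.33 and 335.53 TPM in NG and 395.12, 394.30 and 379.24 in HG. All HG libraries lay above all NG libraries, by 0.28 ± 0.15 on the log2 scale (limma adjusted p = 0.129). ITGA5 gave -0.39 ± 0.17 (limma adjusted p = 0.0811), with no overlap of the groups either. ITGB4 and ITGB5 overlapped between NG and HG, at 0.23 and 0.04. ITGB4 shares its locus with GALK1 on the opposite strand (18.64 to 62.97 TPM), ITGB1 with the non-coding ITGB1-DT (11.67 to 26.53 TPM), and whether reads were counted by strand is not given in the sources used here.

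The si-FGF9 cells were compared with NG at the same glucose. ITGB1 and ITGAV were close to 8- and 9-fold lower in mean TPM, and ITGA2, ITGA6 and ITGB3 were lower by 7.16-, 5.16- and 2.61-fold. ITGB8 and ITGA5 had an adjusted p under 0.05 without reaching the fold criterion, and both change sign with the processing, ITGA5 to 0.46 after median-of-ratios scaling and ITGB8 to 0.78 after the GC correction. Of the 10 members, 5 were called lower and 0 higher, against a background of 47.6% of all tested genes, 42.2% lower and 5.36% higher. Without ITGA2, which passed the filter through NG alone, 4 of 9 were lower. The member share is thus near the background, and the size of the change in ITGB1 and ITGAV is what sets them apart from the median of -0.79 over all genes. NG serves as the control here and in the HG comparison.

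ITGB1 was at 102.34, 115.65 and 53.87 TPM in si-FGF9, below every NG library and also below HG libraries 1 and 3. The mean was 90.62 ± 32.5 (SD, n = 3), 7.96-fold below NG, with a log2 fold change of -3.05 ± 0.46 (limma adjusted p = 9.38e-05). ITGAV was at 13.49, 13.57 and 7.83 TPM, 8.68-fold below NG, with a log2 fold change of -3.04 ± 0.34 (limma adjusted p = 1.66e-05). For both genes si-FGF9 library 3 was the lowest.

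ITGB3 was nearly the same in the 3 si-FGF9 libraries, at 34.99, 36.85 and 35.56 TPM, with a log2 fold change of -1.36 ± 0.26 (limma adjusted p = 0.000475). ITGA2 and ITGA6 were at means of 0.44 and 0.83 TPM, and their log2 fold changes were -1.53 and -1.54. ITGB8 was at 1.72, 2.11 and 0.93 TPM and gave -0.87 ± 0.24 (limma adjusted p = 0.00681), which became -1.01 and was called without si-FGF9 library 2. ITGA5 gave -0.56 ± 0.17 (limma adjusted p = 0.0121).

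ITGA3 was at 385.02, 373.13 and 413.01 TPM, above every NG library, by 0.28 on the log2 scale (limma adjusted p = 0.101). ITGB5 was at 55.01, 50.26 and 53.26 TPM, below every NG library, by -0.30 (limma adjusted p = 0.186). ITGB4 overlapped with NG.

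HG + OE-FGF9 was compared with HG at 50 mM glucose, where added FGF9 and its vector cannot be told apart. No member was called higher. ITGAV and ITGB3, which together form the vitronectin receptor, were called lower still, and ITGB1 had a similar fold change but missed the p criterion. The 2 members called lower of 10 stand beside 5.61% of all tested genes called, 2.67% lower and 2.94% higher. The median log2 fold change was -0.71 over the members and -0.13 over all genes.

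ITGB3 was at 15.57, 17.03 and 34.99 TPM in HG + OE-FGF9, just below the lowest HG library at 35.26, and gave -1.05 ± 0.26 (limma adjusted p = 0.025). ITGAV was at 6.46, 6.30 and 13.20 TPM, where library 3 exceeded HG library 2 at 12.78, and gave -1.28 ± 0.34 (limma adjusted p = 0.0368). ITGB1 was at 43.84, 44.53 and 113.76 TPM, also overlapping with HG, and gave -1.35 ± 0.46 (limma adjusted p = 0.0841). In all 3 genes library 3 lay at least 2-fold above libraries 1 and 2, which were almost identical.

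ITGA3 was at 204.87, 208.25 and 303.10 TPM, below every HG library, and gave -0.73 ± 0.15 (limma adjusted p = 0.0107), under the fold criterion. ITGB4 was at 6.18, 5.62 and 8.92 TPM, also below every HG library, with -0.85 ± 0.24 (limma adjusted p = 0.0489). ITGB5 gave -0.68 ± 0.19 (limma adjusted p = 0.047), and its libraries overlapped with HG. The low-abundance chains ITGA2, ITGA6 and ITGB8 and the fibronectin receptor chain ITGA5 gave -0.01, -0.38, 0.13 and -0.25, each with an adjusted p above 0.3.

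The count of 2 in this comparison rested on single libraries. It was 0 without HG library 3, without HG + OE-FGF9 library 1 or without library 2, and 1 without HG library 1. Over all genes the lower calls, 391 with every library, were 456, 210, 209 and 257 there. The member count rose to 3 without HG library 2 and to 4 without HG + OE-FGF9 library 3, where 929 and 1024 genes were called lower. With HG + OE-FGF9 libraries 1 and 2 averaged as 1 library it was also 0, beside 201 genes called lower.

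In the order of mean levels, ITGB1, ITGAV, ITGB3, ITGA5 and ITGA6 ran from NG through HG and si-FGF9 to HG + OE-FGF9. Within that order, none of the 10 members was called between si-FGF9 and HG (background 11.1% of genes, 9.67% lower and 1.4% higher) or between si-FGF9 and HG + OE-FGF9 (background 9%, 7.36% lower and 1.65% higher). Between HG + OE-FGF9 and NG, 5 members were called, all lower, or 4 of 9 without ITGA2 (background 39.7%, 32.7% lower and 7.01% higher). ITGA3 and ITGB4 were highest in si-FGF9 and lowest in HG + OE-FGF9. They differed between these groups by 0.73 ± 0.15 and 0.99 ± 0.24 on the log2 scale (limma adjusted p = 0.00462 and 0.0129), with no overlap. For ITGA3, si-FGF9 and HG were level, at 390.39 and 389.55 TPM.

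**Figure D2:**
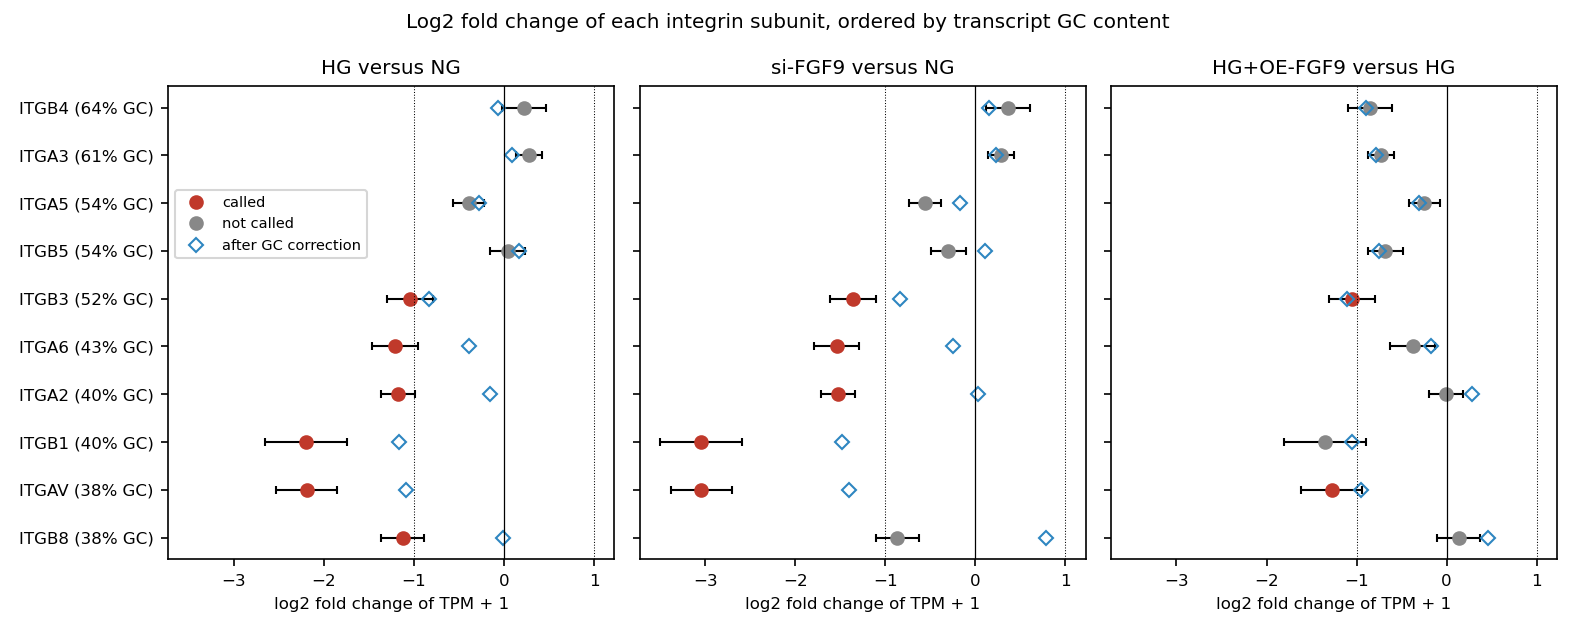
Log2 fold change of TPM + 1 with its SE for the 10 members in 3 comparisons, ordered by transcript GC content, red where called and grey where not. Open blue diamonds give the value after the GC correction, where ITGA2, ITGA6 and ITGB8 lie between -0.39 and 0.78 in HG and si-FGF9 while ITGB1 and ITGAV stay below -1.

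Fold change moved with GC content across all genes, and the members followed. When the genes were cut into 10 equal classes by GC content, the most AT-rich class had a median log2 fold change of -1.22 between HG and NG and the most GC-rich class one of 0.30. In si-FGF9 versus NG the corresponding medians were -1.79 and 0.20, and in HG + OE-FGF9 versus HG they were -0.36 and 0.05. The 5 AT-rich members ITGB8, ITGAV, ITGB1, ITGA2 and ITGA6 all fell in HG, and the GC-rich ITGA3 and ITGB4 did not. ITGA2, ITGA6 and ITGB8 lay within the quartiles of genes of like GC content in HG, as did ITGA2 and ITGA6 in si-FGF9, where ITGB8 lay above them. ITGB1, ITGAV and ITGB3 lay below the lower quartile.

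**Figure D3:**
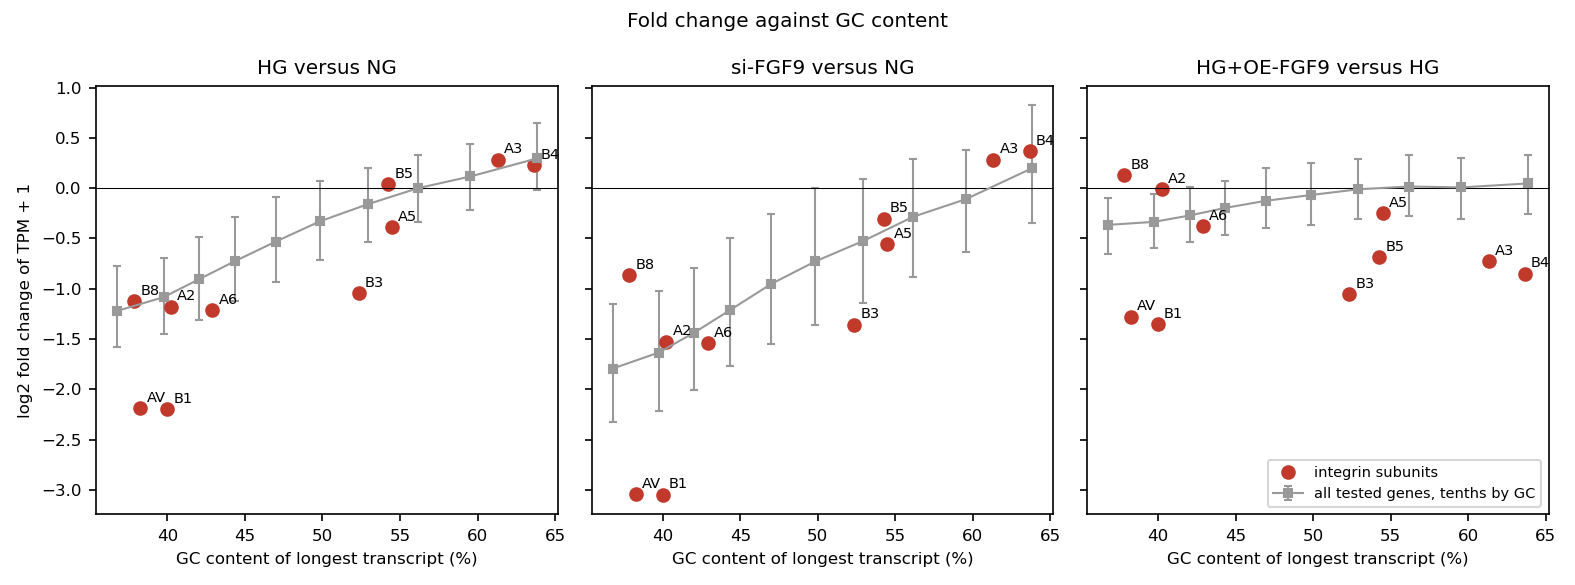
Log2 fold change of TPM + 1 against the GC content of the longest transcript for the 10 members (red) and for all tested genes in 10 classes by GC content (grey squares, median; bars, quartiles). ITGB1, ITGAV and ITGB3 lie below the quartile range of genes of like GC content in all 3 comparisons.

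A spline on GC content was therefore removed from each library and the fit repeated on the 14191 genes with a known transcript. ITGB1 and ITGAV were still called in HG, at -1.16 and -1.09 (background 3.06% lower and 3.78% higher), and in si-FGF9, at -1.48 and -1.40 (background 12% lower and 12.3% higher). ITGB3 gave -0.83 and -0.84 with adjusted p of 0.0184 and 0.00834 in limma, under the fold criterion. ITGA2, ITGA6 and ITGB8 gave -0.16, -0.39 and -0.01 in HG cells, and 0.03, -0.25 and 0.78 with the siRNA, where none was called. In HG + OE-FGF9 versus HG, ITGB3 and ITGB1 were called after the correction, at -1.10 and -1.05 (background 2.18% lower and 3.03% higher), and ITGAV gave -0.95 (limma adjusted p = 0.00448). Whether the GC trend arose in the cells or in library preparation was not tested.

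The same shift appears in the balance of all calls. In HG versus NG, 242 genes were called higher and 3328 lower, which became 1063 and 1240 after median-of-ratios scaling and 536 and 434 after the GC correction. In si-FGF9 versus NG, 785 higher and 6181 lower became 2774 and 2613 after scaling, and in HG + OE-FGF9 versus HG 430 and 391 became 505 and 281. Scaling moved the median of all genes to 0.00 in HG and -0.01 in si-FGF9. Relative to that, ITGB1 and ITGAV remained called lower, at -1.68 each in HG cells and at -2.02 and -2.05 with the siRNA, while ITGA3 and ITGB4 were called higher in si-FGF9, at 1.32 each. A fall of ITGB1 and ITGAV relative to the other genes was thus present under each scaling, except that ITGAV in HG gave -0.92, short of the fold criterion, when transcript length was corrected together with GC content.

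The balance between chains was compared within each library, which needs no scaling between libraries. ITGB1 per summed TPM of the 5 alpha members was 1.56, 1.28 and 1.21 in NG cells. In HG cells it was 0.350, 0.158 and 0.560. The si-FGF9 libraries gave 0.218, 0.254 and 0.107. Those of HG + OE-FGF9 gave 0.161, 0.162 and 0.279. In these uncorrected values NG cells thus held more ITGB1 transcript than alpha transcript and all other libraries held less. The mean ratio was 3.79-fold lower in HG and 6.99-fold lower in si-FGF9 than in NG, without overlap (exact permutation test, two-sided p = 0.1 for each), and 0.1 is the smallest p that 3 against 3 libraries allow. HG + OE-FGF9 and HG overlapped (exact permutation p = 0.4). After the GC correction the ratio was 0.730 ± 0.029 (SD, n = 3) in NG cells, 0.348 ± 0.092 in HG cells and 0.257 ± 0.065 in si-FGF9 cells, still without overlap. The NG libraries, at 0.762, 0.719 and 0.708, then also held less ITGB1 than alpha transcript.

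The sum of the 5 alpha chains was 535.997 TPM in NG cells, 1.08-fold more than the 496.393 TPM of HG and 1.13-fold more than the 475.91 TPM of si-FGF9. With added FGF9 it was 318.76 TPM. The sum of the 5 beta chains was 894.997 TPM in NG cells, 2.94-fold more than the 303.98 TPM of HG and 4.58-fold more than the 195.62 TPM of si-FGF9. With added FGF9 it was 140.587 TPM. ITGA3 made up 59.8% ± 2.19 (SD, n = 3) of the alpha sum in NG cells, against 78.5% ± 0.77 with high glucose, 82.0% ± 0.065 with the siRNA and 75.005% ± 0.75 with added FGF9. ITGAV made up 18.9% of it in NG cells, 4.59% in HG cells and 2.47% in si-FGF9 cells. Among the beta chains, ITGB1 made up 80.5% ± 2.66 in NG cells, 54.7% ± 15.2 in HG cells and 45.3% ± 10.7 in si-FGF9 cells, while the share of ITGB5 went from 7.35% to 24.9% and 27.5%. HG and si-FGF9 each did not overlap with NG in any of these shares (exact permutation p = 0.1 for each). HG + OE-FGF9 was not tested against NG in these shares. ITGB4 per ITGA6 was 2.62 in NG cells, 12.8 in HG cells and 20.1 in si-FGF9 cells, on ITGA6 levels near 1 TPM outside NG. These shares and this ratio set GC-rich chains against AT-rich ones, and they were not recomputed after the GC correction. With that correction, high glucose left ITGB4 at -0.06 and ITGA6 at -0.39 on the log2 scale. For the siRNA the values were 0.15 and -0.25, and neither gene was called in either comparison.

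**Figure D4:**
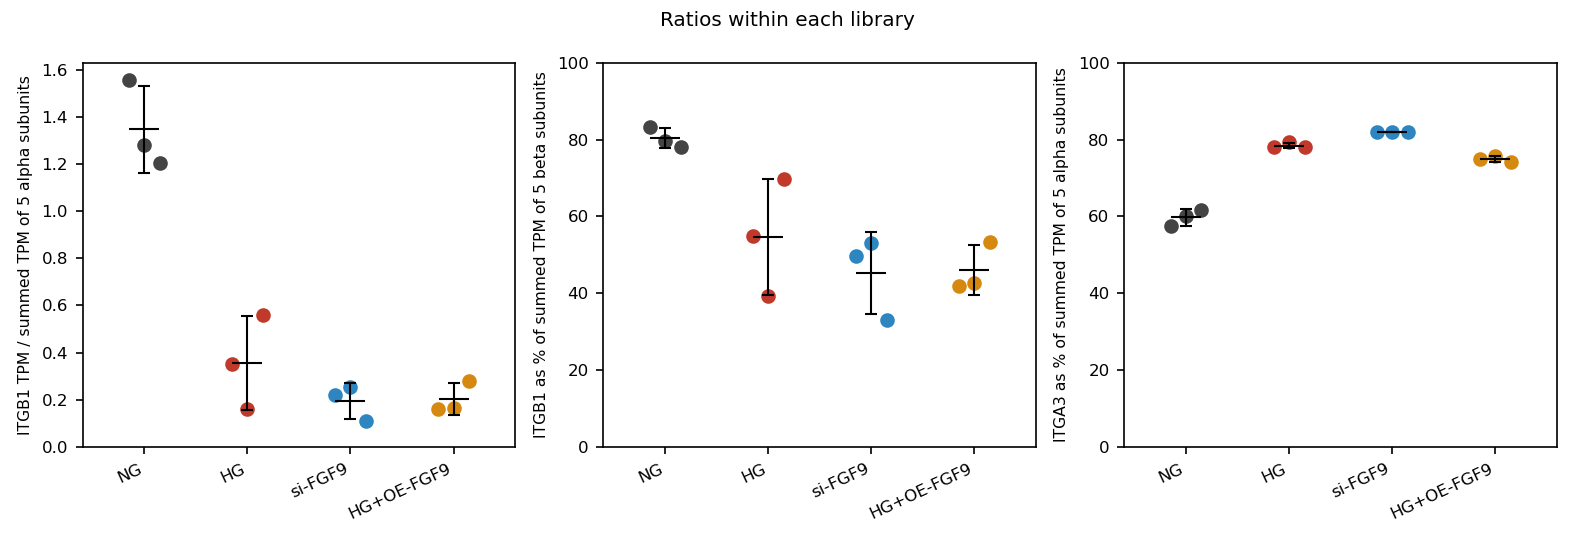
Ratios within each library (points), with the mean and SD of 3 libraries (black): ITGB1 TPM per summed TPM of 5 alpha subunits, ITGB1 as a percentage of 5 beta subunits and ITGA3 as a percentage of 5 alpha subunits. ITGB1 per alpha subunit is above 1.2 in every NG library and at most 0.560 elsewhere.

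ITGB1P1, a processed pseudogene on chromosome 19 (14621634 to 14622242, minus strand, GRCh38), adds a doubt to the level of ITGB1 and to the comparisons with NG. All 609 bases of it are identical to a stretch of an ITGB1 transcript in GENCODE 29, so that reads from this stretch could be given to either. It was listed at 21.78, 57.60 and 32.49 TPM in NG and at 0 in the other 9 libraries. Whether the NG libraries were quantified in the same way as the others was not tested, and a difference would bear on every comparison with NG. With both added together, the log2 fold changes of ITGB1 were -2.27 in HG and -3.12 in si-FGF9, and both calls stayed.

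Of the other 16 integrin subunits, 10 did not pass the filter, none of them above 0.88 TPM, among them ITGA4, ITGA8 and ITGB7. Of the 6 tested, 2, 3 and 1 were called lower in the 3 comparisons, beside 22.7%, 42.2% and 2.67% of all genes. The list medians were -0.72, -0.93 and -0.39 on the log2 scale. In HG, ITGA1, a collagen-binding partner of ITGB1, and ITGB6, the epithelial partner of ITGAV that activates TGF-beta, were called at -1.71 and -1.22. In si-FGF9 they gave -2.05 and -2.19, and the third called was ITGA7, a laminin receptor chain, at -1.37. ITGB6 was at 6.0, 6.19 and 7.22 TPM in NG cells and at 2.80, 1.74 and 2.13 TPM in HG cells. With added FGF9 it was at 0.17, 0.30 and 1.0 TPM, a change of -1.14 ± 0.23 from HG (limma adjusted p = 0.0107). ITGA1 and ITGB6 are AT-rich, and neither was called in any of the 3 comparisons after the GC correction, whereas the GC-rich ITGA7 was called lower in HG and si-FGF9, at -1.11 and -1.35. After that correction 3.06% and 12% of all genes were called lower in HG and si-FGF9. The leukocyte chains ITGAE and ITGB2 were present, at 44.6 and 12.4 TPM in NG, and were not called.

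The ligands were the list with the most members called. Of 21 matrix and latent growth factor genes, 17 were tested, and 7 were called lower with high glucose, 13 with the siRNA and 8 with FGF9 added to high glucose, and 0 were called higher, where 22.7%, 42.2% and 2.67% of all genes were lower. Their median log2 fold changes were -1.07, -1.80 and -1.03, beside -0.39, -0.79 and -0.13 over all genes. After the GC correction the lower calls were 4, 8 and 8, where 3.06%, 12% and 2.18% of all genes were lower. No such count is read as particular to a list. CCN2, a matricellular protein bound by several integrins, was at 173.26, 144.95 and 146.42 TPM in NG cells. HG cells had 57.61, 41.41 and 28.22 TPM, a log2 fold change of -1.90, and si-FGF9 cells had 8.25, 6.85 and 9.53 TPM, a change of -4.09. COL4A1, a basement membrane collagen and ligand of ITGA1 and ITGA2, was called lower in si-FGF9 by -2.83, and THBS1, a thrombospondin, in HG by -1.62. In HG + OE-FGF9 versus HG, THBS1 gave -1.70 and NPNT, the nephronectin ligand of ITGA8, gave -1.72. COL4A1 and THBS1 were still called in HG after the correction, at -1.52 and -1.05, and CCN2 at -1.65. THBS1 also fell after the siRNA, by -2.03 before the correction. For this gene too, the study's RT-qPCR showed a rise under high glucose and after the siRNA, opposite to the TPM. With FGF9 added to high glucose the RT-qPCR value of THBS1 fell, as the TPM did. In kidney of diabetic mice it was above that of controls.

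Among 20 adaptors that tie integrin tails to actin, 18 were tested, and 3, 10 and 1 were called lower in the 3 comparisons, beside 22.7%, 42.2% and 2.67% of all genes. The list medians were -0.28, -1.17 and -0.29. VCL, the vinculin gene, and LIMS1, which encodes PINCH1 of the ILK complex, gave -1.46 and -1.59 in HG cells, and -2.55 and -2.47 after the siRNA. VCL was at 71.22, 71.69 and 68.08 TPM in NG and 10.30, 11.84 and 11.35 in si-FGF9, and of the pair only VCL was called after the GC correction, at -1.52 in si-FGF9. TNS2, a tensin, was the adaptor called in HG + OE-FGF9 versus HG, at -1.09 (limma adjusted p = 0.0594). After the correction (background 3.06%, 12% and 2.18% lower) 0, 4 and 1 adaptors were called lower. PARVB was then called higher in si-FGF9, at 1.30, beside 12.3% of all genes. Before the correction PARVB gave 0.83 and was not called.

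All 10 adhesion signalling genes were tested, with 2, 5 and 0 called lower, near the 22.7% and 42.2% of all genes in HG and si-FGF9. The list medians were -0.52, -0.94 and -0.25. PTK2, the focal adhesion kinase, and its substrate NEDD9 gave -1.24 and -1.20 in HG, and PTK2 and the kinase SRC gave -1.55 and -1.61 in si-FGF9. After the GC correction PTK2 and NEDD9 gave -0.58 and -0.75 in HG and no gene of the list was called there. SRC was the only one still called lower in si-FGF9, at -1.53, beside 12% of all genes. The GTPase RAC1 was called higher there, at 1.59, beside 12.3% of all genes. Without the correction RAC1 gave 0.51 and was not called. Of 8 tested genes for integrin inactivation and trafficking, 3, 4 and 0 were lower (background 22.7%, 42.2% and 2.67%), with list medians of -0.40, -1.16 and -0.10. RAB21 and RAB11FIP1, which act in integrin recycling, gave -2.02 and -2.06 in HG, and -3.27 and -2.23 after the siRNA. After the GC correction RAB11FIP1 was still called in both, at -1.72 and -1.55, and RAB21 only in si-FGF9, at -1.62. ITGB1BP1, a binding partner of the ITGB1 tail, was at 74.12, 62.89 and 61.51 TPM in NG and 99.22, 88.99 and 84.09 in HG, above NG in each library. Before the GC correction it was not called, at 0.45 in HG and 0.42 in si-FGF9. It was called higher only after the correction, at 1.28 in HG and 1.72 in si-FGF9. In the corrected fit 3.06% and 12% of all genes were called lower in HG and si-FGF9, and 3.78% and 12.3% higher.

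The 7 hemidesmosome and tetraspanin genes, the setting of ITGB4, were all tested, with 1, 3 and 1 called lower (background 22.7%, 42.2% and 2.67%). DST, which encodes the plaque protein BPAG1, was at 72.91, 61.56 and 57.12 TPM in NG cells. In HG cells it was at 23.59, 16.41 and 34.01 TPM, a log2 fold change of -1.39, and after the siRNA at 11.46, 11 and 8.93 TPM, a change of -2.50. In HG + OE-FGF9 versus HG it gave -1.03 (limma adjusted p = 0.0532). After the GC correction DST gave -0.43 in HG and -0.76 in HG + OE-FGF9 versus HG, and neither was called, while -1.03 in si-FGF9 was. The list then had 0, 2 and 0 lower calls (DST and CD82 in si-FGF9), beside 3.06%, 12% and 2.18% of all genes. COL17A1, a hemidesmosome collagen, was then called higher in si-FGF9, at 1.13, beside 12.3% of all genes. Before the correction COL17A1 gave 0.82 and was not called. CD82, a tetraspanin, was called lower in si-FGF9 by -1.74. PLEC, the plectin that links ITGB4 to keratin, was not called, at 0.54, 0.11 and -0.35. The list's medians were -0.20, 0.11 and -0.35.

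**Figure D5:**
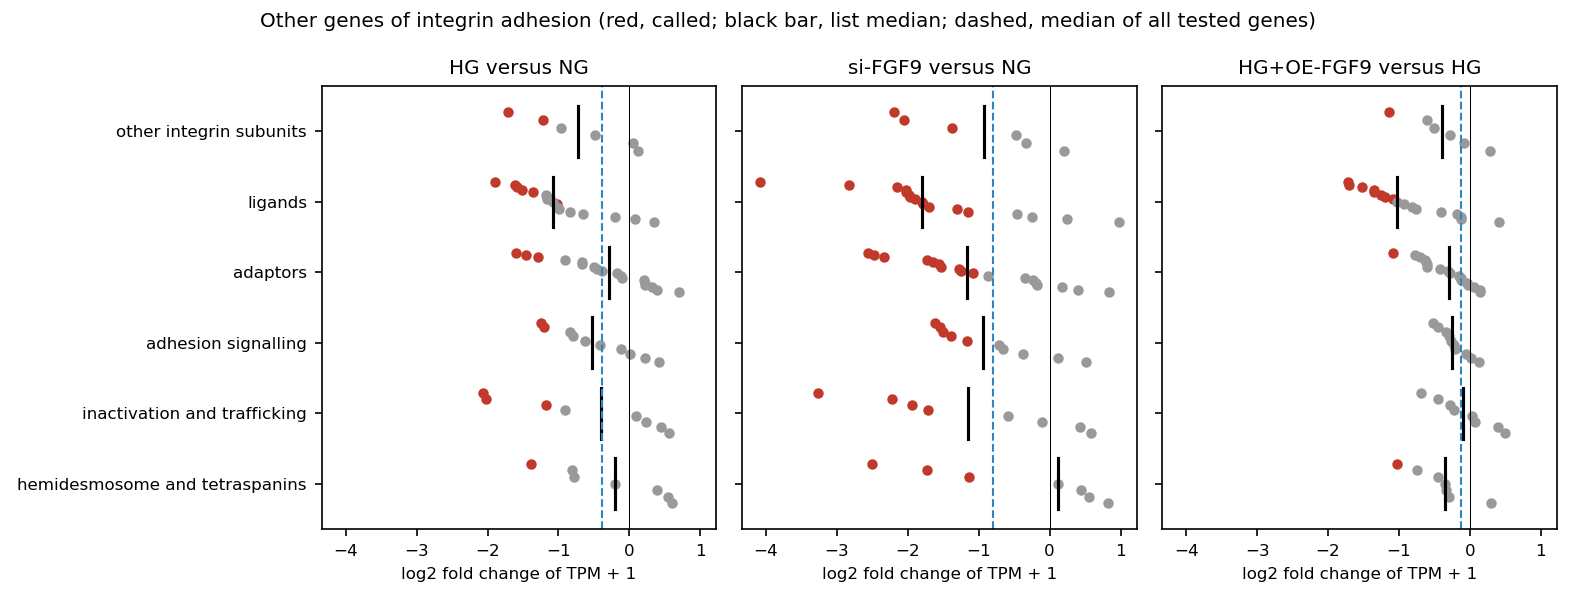
Log2 fold change of TPM + 1 of the genes of 6 lists around the integrins in 3 comparisons (points, red where called), with the list median (black bar) and the median of all tested genes (dashed blue line). Ligand medians of -1.07, -1.80 and -1.03 lie left of the medians of all genes in each comparison.

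Genes whose log2 levels followed ITGB1 most closely over the 12 libraries were APP, the amyloid precursor protein gene, with Pearson r = 0.998, RAI14 with 0.998 and MAN2A1, a Golgi mannosidase, with 0.997. APP was at a mean of 728.803 TPM in NG cells, and at 272.85 TPM with high glucose, 169.037 TPM with the siRNA and 141.273 TPM with added FGF9. Those nearest to ITGB4 were ASS1, the argininosuccinate synthase gene, with r = 0.940, GPC1 with 0.911 and SAA1 with 0.908, and SAA1 ran from 134.883 TPM in HG + OE-FGF9 to 444.36 in si-FGF9. These values describe libraries that fall into 4 groups and share the GC trend.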

How the data were processed

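RNA of HK2 cells in 12 libraries (HiSeq3000) was deposited by the authors as TPM per Ensembl gene to 2 decimals, without counts. The submitters' processing notes name Bowtie 0.12.2 and mm8, a mouse build, although the identifiers are human. The quantification tool and annotation are not given in the sources used here. Of 62703 identifiers, 62625 matched the annotation. Groups follow the sample labels.

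The 14639 genes that reached 1 TPM in no fewer than 3 libraries entered a limma fit (version 3.58.1, R 4.3.3) of log2(TPM + 1) over all 12 libraries, the group as the only term and a variance trend. Genes were called where the log2 fold change was 1 or more, up or down, with p under 0.01 unadjusted. Benjamini-Hochberg adjusted p are over all genes tested. Ratios within libraries were compared by exact permutation. GC content came from the longest transcript in GENCODE 29 (known for 96.9% of genes), and the correction removed a natural spline with 5 degrees of freedom. The script was tested on simulated data. All 10 members are named, the other lists are given as counts with up to 2 called genes of largest change in each direction, and the 3 genes most like ITGB1 and ITGB4 are given. ITGA7, ITGAE, ITGB2, PLEC, ITGB1BP1, PARVB, RAC1, COL17A1, CD151 and FN1 fall outside that rule and were chosen after their values were seen. Members and lists were chosen with earlier results of these data known. Alternatives were other filters, pseudocounts, scalings, a replicate block and each library left out. Same-numbered libraries did not deviate together (r from -0.44 to 0.25 over 18 pairs, 3 over 0.1), so numbers were not taken as pairs.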

Additional observations from a re-analysis of the deposited data

How the results depend on the processing

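ITGB1 was called lower in HG and si-FGF9 under all 20 alternatives for each comparison, and ITGAV under 18 of 19 in HG and all 19 in si-FGF9. The correction for length with GC content, the averaging of HG + OE-FGF9 libraries 1 and 2, the addition of ITGB1P1 and the GC correction of the ITGB1 ratio were chosen after seeing the data. The cause of each change was not tested, except that a filter of 1 TPM in every library removes ITGA2, ITGA6 and ITGB8.

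In HG versus NG the 6 calls became 3 with that filter, 2 after median-of-ratios scaling, quantile normalization or GC correction (with or without a replicate block), and 1 with length. Over all genes, 3570 calls became 2370 with the filter, 2303 after scaling, 2236 after quantile normalization, 970 after GC correction and 749 with length. In si-FGF9 versus NG the 5 became 3 with the filter and after quantile normalization, and 2 after GC correction, with or without block or length. All-gene calls went from 6966 to 4713 with the filter, 4873 after quantile normalization and 3452 after GC correction. The counts take both directions, and ITGB4 was called in 2 of its 19 alternatives there and ITGA3 in 1, all higher. In HG + OE-FGF9 versus HG the 2 became 0 with the 6 libraries alone or libraries 1 and 2 averaged, and 1 with length. The 821 calls over all genes became 624, 555 and 693 in these settings. In HG + OE-FGF9 versus NG the 5 became 3 with the filter, quantile normalization and each GC correction. All-gene calls went from 5818 to 3825 with the filter, 4822 after quantile normalization and 3274 after GC correction. In si-FGF9 versus HG + OE-FGF9 the 0 became 1 with a pseudocount of 0.1 or quantile normalization, 3 after median-of-ratios scaling and 2 after each GC correction. All-gene calls went from 1318 to 2126 with that pseudocount, 1067 after quantile normalization, 1263 after scaling and 1017 after GC correction. The replicate block alone left the counts at 6, 5 and 2, with 3518, 6922 and 793 calls over all genes. With each library left out the counts ranged from 4 to 6 in HG versus NG, 5 to 6 in si-FGF9 versus NG, 0 to 4 in HG + OE-FGF9 versus HG, 5 to 6 in HG + OE-FGF9 versus NG, 0 to 2 in si-FGF9 versus HG (2 without HG library 2) and 0 to 2 in si-FGF9 versus HG + OE-FGF9. In the same order, all-gene calls ranged from 2238 to 4746, 6690 to 6961, 549 to 1617, 5255 to 6586, 1051 to 2566 and 1148 to 1476.

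Signs turned for ITGA2, ITGA5, ITGB4, ITGB5 and ITGB8. After median-of-ratios scaling ITGA5 gave 0.12 in HG and 0.46 in si-FGF9, ITGB5 gave 0.71 in si-FGF9 and ITGA2 0.0613 in HG + OE-FGF9 versus HG. After quantile normalization ITGB5 and ITGB8 gave 0.21 and 0.0665 in si-FGF9, and ITGA2 0.0326 in HG + OE-FGF9 versus HG. After GC correction, with and without block, ITGB4 gave -0.0627 in HG, ITGA2, ITGB5 and ITGB8 gave 0.0268, 0.10 and 0.78 in si-FGF9, and ITGA2 0.28 in HG + OE-FGF9 versus HG. With length, ITGA2 and ITGB8 gave 0.0179 and 0.17 in HG, ITGA2, ITGA5, ITGB5 and ITGB8 gave 0.19, 0.18, 0.44 and 0.96 in si-FGF9, and ITGA2 0.36 in HG + OE-FGF9 versus HG. ITGA2 in that comparison was 0.0258 with a pseudocount of 0.1, 0.0237 with libraries 1 and 2 averaged, and from -0.19 to 0.14 with each library left out. ITGB4 in HG ranged from -0.00454 to 0.39 and ITGB5 from -0.10 to 0.23 with each library left out.

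The difference in ITGB1 per alpha subunit was -0.99 in HG and -1.16 in si-FGF9, -1.29 and -1.47 without ITGAV in the sum, and -0.38 and -0.47 after GC correction. It ranged from -1.10 to -0.89, from -1.23 to -1.05 and, in HG + OE-FGF9 versus HG, from -0.25 to -0.05 with each library left out.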

Other observations

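ITGB1-DT, a non-coding RNA that overlaps the ITGB1 gene on the opposite strand, was at 24.38, 18.86 and 21.63 TPM in NG cells. HG cells had 11.67, 12.70 and 26.53 TPM, si-FGF9 cells 17.86, 22.90 and 11.86 TPM, and cells with added FGF9 12.38, 12.97 and 15.43 TPM. Its HG and si-FGF9 libraries overlapped with NG, where those of ITGB1 did not. ITGA6-AS1, antisense to ITGA6, stayed between 0.00 and 3.64 TPM. The tetraspanin CD151, a partner of ITGA3, was at 136.74, 181.24 and 179.46 TPM in NG and 265.65, 283.07 and 207.60 in HG, and all 3 HG libraries were above all NG libraries, by 0.60 ± 0.15 on the log2 scale (limma adjusted p = 0.00611), under the fold criterion. FN1, the fibronectin bound by ITGA5 and ITGAV, was the most abundant gene named here, at 4663.82 to 6148.63 TPM in NG. It was at 1590.44 to 3443.04 TPM in HG, 1266.18 to 1750.52 in si-FGF9 and 559.98 to 1941.99 in HG + OE-FGF9. In HG versus NG it was not called, at -1.07, or -0.20 after the GC correction. In si-FGF9 versus NG it was called lower at -1.80, but not after the correction, at -0.43. In HG + OE-FGF9 versus HG it was called without and with the correction, at -1.52 and -1.29.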
